A study of Mus musculus with 8 samples.

Results

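The transfer RNAs (tRNAs) described here are those that carry proline, threonine, asparagine and glutamine, the amino acids written Pro, Thr, Asn and Gln. Members were chosen by name: every tRNA entry of the small RNA count tables whose amino acid code was one of these 4. For Hepa 1-6 cells 65 of 379 tRNA entries, among 475 tRNA and small nucleolar RNA (snoRNA) entries in all, met the rule, 18 for Pro, 18 for Thr, 13 for Asn and 16 for Gln. For hepatocytes 61 of 371 tRNA entries, among 467 in all, did so, and these 61 were also listed for Hepa 1-6 cells. The 4 members listed for Hepa 1-6 alone were chr13.tRNA971-ThrAGT, chr13.tRNA975-GlnCTG, chr17.tRNA998-ProTGG and chr3.tRNA297-GlnCTG. A name gives the chromosome, a running number, the amino acid and the anticodon in DNA letters.

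The study asked what happens to transcription when KAP1, a corepressor encoded by Trim28, is depleted. rRNA-depleted small RNA was sequenced from Hepa 1-6 cells, a mouse hepatoma line, as 1 control and 1 Kap1 KD library, and from primary mouse hepatocytes as 1 wild-type and 1 Kap1 KO library. For polyadenylated RNA of Hepa 1-6 cells the series holds 2 control and 2 Kap1 KD samples. With 1 library per group, no small RNA difference has a replicate check, and no p-value is given for one.

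Kap1 KD cells received an shRNA against KAP1 and control cells a control shRNA, delivered by a plasmid according to a label field and by transduction 5 days before collection according to another. The study's methods describe a lentiviral vector and, for the control, its empty form. Hepatocytes were labelled wild type or Kap1 Knock-out and were processed directly after purification. The driver of the knockout, the strain, the age and the number of animals are not given in the sources used here. rRNA was removed with a Ribo-zero kit from Hepa 1-6 RNA and with a GeneRead kit from hepatocyte RNA, so cell type and kit cannot be told apart. Log2 ratios were taken only within each cell type, and values of the cell types are set side by side as description. Fewer cells of a type and less RNA per cell cannot be told apart in such bulk samples.

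A tRNA reads a codon of messenger RNA through its anticodon and delivers the amino acid that a dedicated synthetase has attached to it. RNA polymerase III transcribes tRNA genes from promoter elements inside the gene and stops at a run of T downstream, and the transcript is then trimmed at both ends, given a CCA tail and modified. Vertebrate genomes hold many tRNA genes per anticodon, often with the same sequence at several places, so that reads cannot always be assigned to a single gene.

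The small RNA tables name loci but give no coordinates in the genome. A cloverleaf search of the mm9 genome, which required the internal B box and at most 2 unpaired positions over the acceptor, anticodon and T stems, placed 61 of the 65 members by chromosome, anticodon and gene length. Of these, 25 matched a single locus, and 36 belonged to sets of loci on the same chromosome that were assigned by the order of their numbers, an order that held in all 17 of the 17 pairs where it could be checked. The sequences below are mm9 genomic, written 5′ to 3′ in the sense of the tRNA, with the anticodon in capitals.

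The Pro genes are shown first because their anticodon groups differ from one another by so little, and because chr11.tRNA372-ProTGG had the highest count among members in the Kap1 KO hepatocyte library.
chr1.tRNA672-ProAGG: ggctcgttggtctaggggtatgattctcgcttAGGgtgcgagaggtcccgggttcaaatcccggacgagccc
chr11.tRNA396-ProCGG: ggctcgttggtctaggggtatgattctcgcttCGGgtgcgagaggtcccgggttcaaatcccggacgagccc
chr3.tRNA92-ProTGG: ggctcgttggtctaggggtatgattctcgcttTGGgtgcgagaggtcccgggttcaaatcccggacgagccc
chr7.tRNA441-ProTGG: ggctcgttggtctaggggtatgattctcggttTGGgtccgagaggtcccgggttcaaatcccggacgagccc
chr11.tRNA372-ProTGG: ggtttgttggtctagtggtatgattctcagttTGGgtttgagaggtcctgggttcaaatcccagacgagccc
With positions counted from 1 at the 5′ end, the commonest Pro-AGG sequence (6 of 7 loci) differed from the Pro-CGG sequence (3 of 3 loci) by A33C alone and from the commonest Pro-TGG sequence (4 of 8 loci) by A33T alone. Pro-CGG and the commonest Pro-TGG sequence differed by C33T. chr7.tRNA441-ProTGG differed from the commonest Pro-TGG sequence by C30G and G38C. chr11.tRNA372-ProTGG differed from it at 9 positions, C3T, C5T, G16T, G29A, C30G, G38T, C39T, C49T and G63A.

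The Thr, Asn and Gln genes shown are the most abundant of their anticodon by counts summed over the Hepa 1-6 or the hepatocyte pair. chr11.tRNA630-GlnTTG, chosen after its values were seen, is by the same sums the next Gln-TTG after chrX.tRNA936-GlnTTG in both pairs.
chr11.tRNA395-ThrAGT: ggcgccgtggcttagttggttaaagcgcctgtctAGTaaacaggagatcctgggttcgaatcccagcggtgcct
chr13.tRNA75-ThrCGT: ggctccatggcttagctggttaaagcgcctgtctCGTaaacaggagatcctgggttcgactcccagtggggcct
chr16.tRNA50-ThrCGT: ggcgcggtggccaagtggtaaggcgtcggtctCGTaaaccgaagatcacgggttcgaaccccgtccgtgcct
chr14.tRNA704-ThrTGT: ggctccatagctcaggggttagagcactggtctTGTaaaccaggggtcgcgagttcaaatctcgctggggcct
chr14.tRNA190-ThrTGT: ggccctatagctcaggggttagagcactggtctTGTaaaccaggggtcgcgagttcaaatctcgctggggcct
chr3.tRNA757-AsnGTT: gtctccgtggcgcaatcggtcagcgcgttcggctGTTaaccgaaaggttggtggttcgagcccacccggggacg
chr3.tRNA753-GlnCTG: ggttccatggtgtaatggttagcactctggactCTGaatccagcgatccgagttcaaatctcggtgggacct
chr9.tRNA342-GlnCTG: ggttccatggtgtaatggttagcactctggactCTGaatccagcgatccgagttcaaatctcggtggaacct
chr11.tRNA630-GlnTTG: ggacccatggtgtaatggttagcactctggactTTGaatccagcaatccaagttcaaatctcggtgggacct
chrX.tRNA936-GlnTTG: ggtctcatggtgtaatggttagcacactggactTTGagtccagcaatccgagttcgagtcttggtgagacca
The commonest Gln-CTG and Gln-TTG sequences differed by T3C, T4C, C34T and A68G. chrX.tRNA936-GlnTTG differed from the commonest Gln-TTG sequence at 10 positions, 86.1% identity. chr3.tRNA757-AsnGTT differed from the Asn-GTT sequence shared by 8 of 11 matched loci by T6C, T21C and A68G.

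In mm9, chr11.tRNA372-ProTGG was placed at chr11:67104641-67104712 on the plus strand, inside an exon of a retained-intron transcript of Myh8, a myosin heavy chain gene, on the same strand. chr3.tRNA92-ProTGG lay at chr3:51162276-51162347 on the plus strand, between genes, 17696 bp from Elf2. chrX.tRNA936-GlnTTG lay at chrX:13436292-13436363 on the minus strand, between genes, 7799 bp from Cask. chr13.tRNA75-ThrCGT was placed at chr13:21414682-21414755 on the plus strand, between genes, 3189 bp from Gpx6, and chr3.tRNA757-AsnGTT at chr3:96138538-96138611 on the minus strand, between genes, 40359 bp from Fcgr1. The last pair, like chr11.tRNA372-ProTGG, were assigned within a set by number order.

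Of the 61 placed members, 54 lay between annotated genes, 3 in introns and 4 in exons. The exon cases besides chr11.tRNA372-ProTGG were chr10.tRNA381-AsnGTT, of which 46 bp overlapped a coding transcript of Ndufs7 on the same strand, chr11.tRNA550-ThrCGT, of which 17 of 72 bp overlapped a transcript of Gm11205, and chr11.tRNA1493-GlnTTG, which overlapped the lincRNA Gm11527 by 3 bp. A run of 4 T (TTTT, read on the strand of the tRNA) followed within 40 bases of the gene's end at 57 of the 61 loci (93.4%), against 21.2% of 1453552 windows of the same length on chromosome 19, read on the plus strand. The 4 loci without it included chr3.tRNA757-AsnGTT and chr11.tRNA630-GlnTTG, shown above, and the latter was placed with 2 unpaired stem positions. The genes were clustered: 15 members lay on chromosome 13 between 21264220 and 23611553, 10 on chromosome 3 between 96125997 and 97485453, and 12 of all placed members lay within 100 kb of a histone gene. The 61 placed members had 35 different sequences, of which 26 belonged to a single member and 9 were shared by the other 35 members.

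Trim28 was examined before the tRNAs because it checks the labels, and it was measured in the polyadenylated RNA of Hepa 1-6 cells alone, since the small RNA tables hold no protein-coding gene. In CPM, counts scaled to equal library size after TMM, a trimmed-mean normalisation, the control samples gave 451 and 577 and the Kap1 KD samples 106 and 79.3. Both Kap1 KD samples lay below both controls. On the log2 scale this was a change of -2.48, standard error 0.245, for which edgeR gave an adjusted p of 0.9999 over 14142 genes and DESeq2 one of 2.57e-10. The knockout of the hepatocytes could not be checked in this way.

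The small RNA tables held 26249204 counts in Hepa 1-6 control, 29223566 in Kap1 KD, 3028467 in wild-type and 11006899 in Kap1 KO hepatocytes, summed over listed entries only. tRNA entries took 1059106 of these counts (4.04%) in control Hepa 1-6 cells, 653800 (2.24%) in Kap1 KD cells, 46617 (1.54%) in wild-type hepatocytes and 71380 (0.648%) in Kap1 KO hepatocytes. The remainder were snoRNA counts. tRNA counts were thus few in the hepatocyte libraries, which limits the precision of single members there.

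The 4 amino acids together had 209711 counts in control Hepa 1-6 cells, which was 19.8% of tRNA counts (19.72 to 19.88%, 95% exact Clopper-Pearson interval). Kap1 KD cells had 127314 member counts, 19.5% (19.38 to 19.57%). Wild-type hepatocytes had 1307, 2.80% (2.656 to 2.958%), and Kap1 KO hepatocytes 2097, 2.94% (2.815 to 3.064%). The share was alike within each cell type and high in Hepa 1-6 cells against hepatocytes. All such intervals cover counting error only, since no molecular identifiers are described and several reads can stem from a single molecule. Members at 0 counts numbered 0, 2, 6 and 3 in these libraries in the same order, and the median member had 96, 52, 8 and 12 counts.

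**Figure D1:**
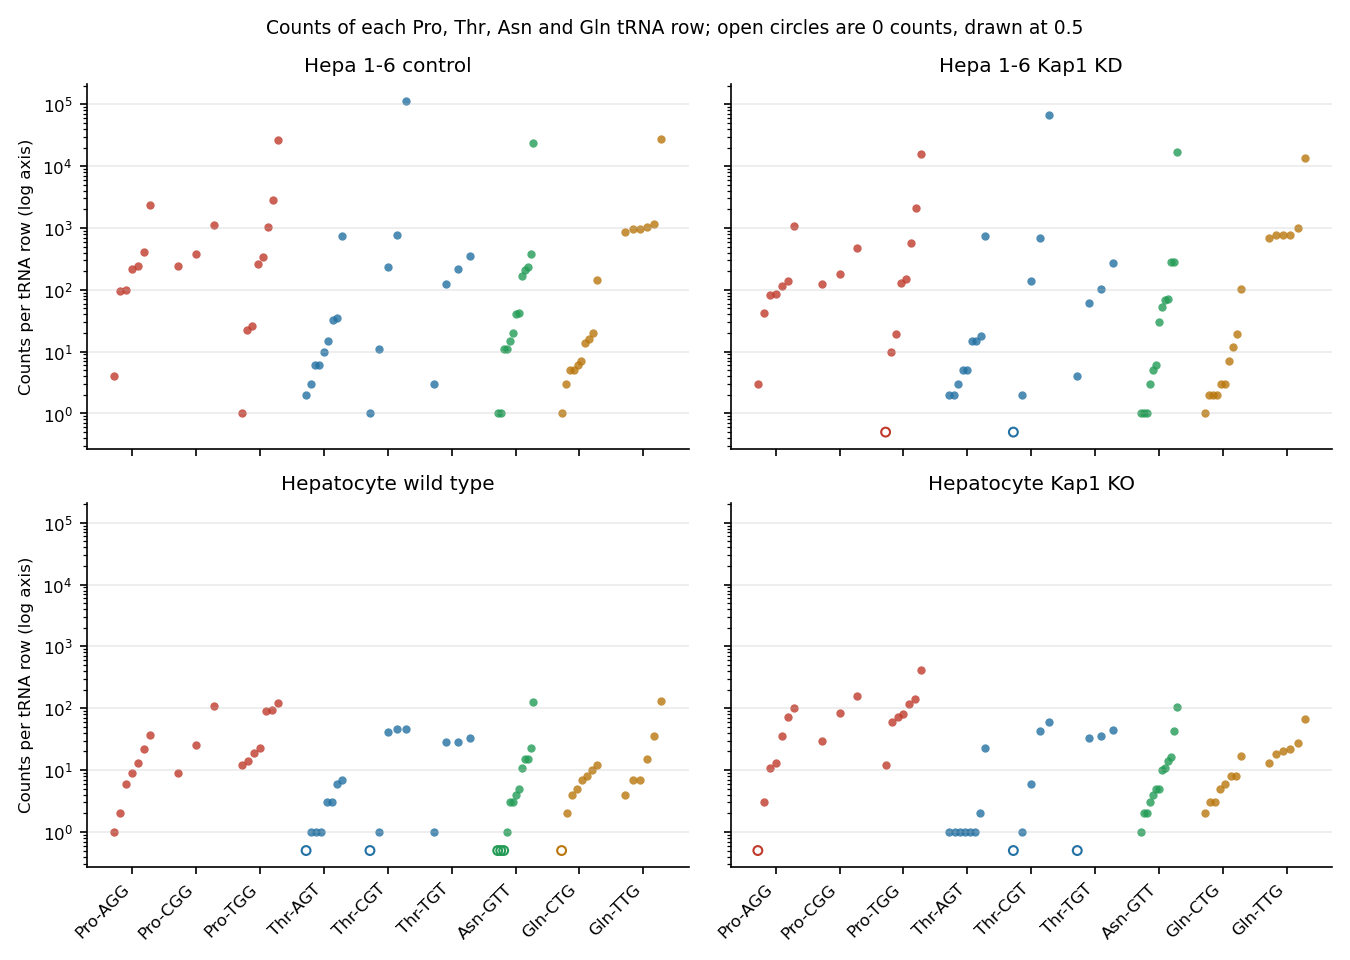
Counts of each member in the 4 small RNA libraries by anticodon, on a log axis; each point is 1 tRNA entry and open circles mark 0 counts. In both Hepa 1-6 libraries a single entry stands far above the rest for Pro-TGG, Thr-CGT, Asn-GTT and Gln-TTG, the highest being chr13.tRNA75-ThrCGT with 112922 counts in control, while in hepatocytes the highest count was 133 in wild type and 414 in Kap1 KO.

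In Hepa 1-6 cells 4 members held 91.2% of member counts in control and 90.4% in Kap1 KD. chr13.tRNA75-ThrCGT had 112922 counts in control and 68259 in Kap1 KD, and 46 in wild-type and 6 in Kap1 KO hepatocytes. chrX.tRNA936-GlnTTG had 27622 and 13789 counts in Hepa 1-6 control and Kap1 KD, and 133 and 20 in wild-type and Kap1 KO hepatocytes. The Kap1 KO library was lowest for both, although its listed total exceeded that of wild type. chr3.tRNA92-ProTGG had 26728 and 15777 counts in Hepa 1-6 control and Kap1 KD, and 122 and 116 in wild-type and Kap1 KO hepatocytes. chr3.tRNA757-AsnGTT had 23881 and 17210 counts in Hepa 1-6 control and Kap1 KD, and 126 and 105 in wild-type and Kap1 KO hepatocytes. For all 4 the Hepa 1-6 libraries were high and the hepatocyte libraries low, with control above Kap1 KD and wild type above Kap1 KO in raw counts.

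Hepatocyte counts were spread more evenly over the members, and 27 entries in wild type and 25 in Kap1 KO were needed to reach 90% of member counts, against 4 in each Hepa 1-6 library. The most abundant member of the hepatocyte pair was chr11.tRNA372-ProTGG, with 89 counts in wild type and 414 in Kap1 KO, and with 22 and 10 in Hepa 1-6 control and Kap1 KD. Kap1 KO stood highest for it, and both Hepa 1-6 libraries were low despite their larger tRNA totals. Its rank came from Kap1 KO, since in wild type the highest member was chrX.tRNA936-GlnTTG with 133 counts. chr11.tRNA396-ProCGG, the next over the hepatocyte pair, had 109 and 156 counts in wild-type and Kap1 KO hepatocytes. It had 379 and 178 in Hepa 1-6 control and Kap1 KD. chr7.tRNA441-ProTGG, chosen after its values were seen, had 92 and 139 counts in wild-type and Kap1 KO hepatocytes, and 2805 and 2066 in Hepa 1-6 control and Kap1 KD. Across members the Spearman rank correlation of counts was 0.979 between the Hepa 1-6 libraries (n = 65) and 0.811 between the hepatocyte libraries (n = 61). It was 0.677 between Hepa 1-6 control and wild-type hepatocytes (n = 61), where members with the same gene sequence are not independent points.

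**Figure D2:**
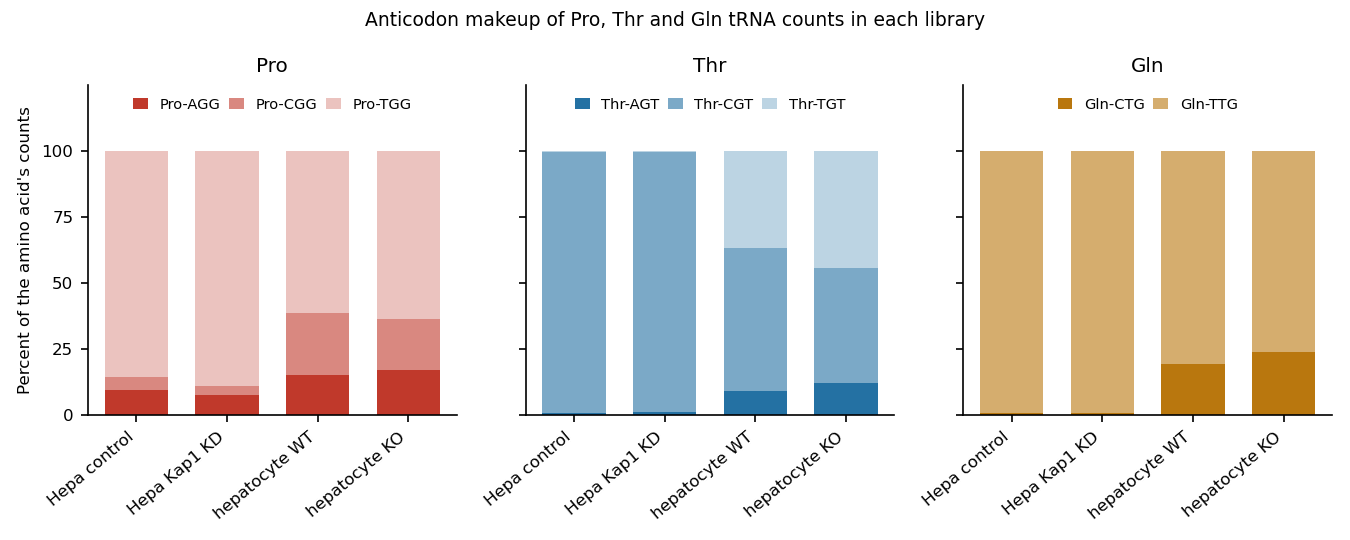
Percent of the counts of Pro, Thr and Gln held by each anticodon in the 4 libraries, as bars from 0. Thr-CGT and Gln-TTG took nearly all counts of their amino acid in Hepa 1-6 cells (98.7% and 99.3% in control), and in wild-type hepatocytes 54.3% and 80.8%; Asn has a single anticodon and is not drawn.

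The anticodon makeup differed more between the cell types, whose kits also differed, than with KAP1 status. Pro-TGG made up 85.8% of Pro counts in Hepa 1-6 control (85.47 to 86.19%) and 89.0% in Kap1 KD (88.58 to 89.43%), and 61.4% in wild-type (57.41 to 65.32%) and 63.8% in Kap1 KO hepatocytes (61.23 to 66.33%). Thr-CGT made up 98.7% and 98.2% of Thr counts in Hepa 1-6 control and Kap1 KD, against 54.3% (47.82 to 60.58%) and 43.5% (37.35 to 49.86%) in wild-type and Kap1 KO hepatocytes. Gln-CTG was rare in Hepa 1-6 cells, at 0.679% and 0.859% of Gln counts, and reached 19.2% (14.51 to 24.64%) and 23.6% (18.19 to 29.81%) in wild-type and Kap1 KO hepatocytes. The intervals of both hepatocyte libraries overlapped for each of these anticodons.

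Log2 ratios were taken of counts scaled by TMM over all tRNA and snoRNA entries of a pair, with 0.5 added to each count. Scaling by the total counts of the listed entries shifts every log2 ratio by -0.81 for Hepa 1-6 cells and -1.17 for hepatocytes, and puts all 4 amino acids and all their anticodons below 0 in both pairs, so that each of their directions above 0 turns. Scaling to the tRNA total alone moved ratios by 0.045 and 0.082, and median-of-ratios scaling by -0.021 and 0.112.

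In Hepa 1-6 cells the summed ratios of the 4 amino acids between control and Kap1 KD lay within 1.5-fold with TMM, and all 4 were past 1.5-fold lower with total counts. Pro counts went from 36373 to 21035, a log2 ratio of -0.14 (-0.164 to -0.115), and Thr counts from 115485 to 70350, a ratio of -0.06 (-0.078 to -0.051). Gln counts went from 32843 to 17920, a ratio of -0.22 (-0.250 to -0.197). Without their most abundant entry the Thr ratio turned to 0.36 and the Gln ratio to 0.31. Asn counts went from 25010 to 18009, a ratio of 0.18 (0.149 to 0.205) that became -0.63 with total counts. Among 22 groups, the amino acids with SeC (selenocysteine) and Sup (suppressor) entries counted apart, Asn ranked 4, Thr 13, Pro 16 and Gln 20 from the highest ratio. These sums follow the most abundant entry of each, which held between 73.5% (Pro) and 97.8% (Thr) of their amino acid in control.

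In hepatocytes Pro stood apart from the other 3 amino acids. Pro counts went from 604 in wild type to 1401 in Kap1 KO, a log2 ratio of 0.52 (0.378 to 0.657) that became -0.65 with total counts and 0.24 without chr11.tRNA372-ProTGG, and ranked 3 of the 22 groups after SeC and His. Thr counts were 247 and 255, a ratio of -0.65 (-0.909 to -0.393). It became -0.39 without chr13.tRNA75-ThrCGT and -0.78 without chr16.tRNA50-ThrCGT. Asn counts were 206 and 221, a ratio of -0.60 (-0.876 to -0.315) that became -0.16 without chr3.tRNA757-AsnGTT. Gln counts were 250 and 220, a ratio of -0.88 (-1.150 to -0.614), rank 20, which turned to 0.07 without chrX.tRNA936-GlnTTG. As a share of tRNA counts, which no scaling between libraries touches, Pro was 1.30% in wild type (1.195 to 1.402%) and 1.96% in Kap1 KO (1.862 to 2.067%). The share of Gln was 0.536% (0.472 to 0.607%) and 0.308% (0.269 to 0.352%), that of Thr 0.530% (0.466 to 0.6%) and 0.357% (0.315 to 0.404%), and that of Asn 0.442% (0.384 to 0.506%) and 0.310% (0.270 to 0.353%). For each of the 4 amino acids the intervals of the hepatocyte libraries did not overlap, with Pro high and Thr, Asn and Gln low in Kap1 KO.

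**Figure D3:**
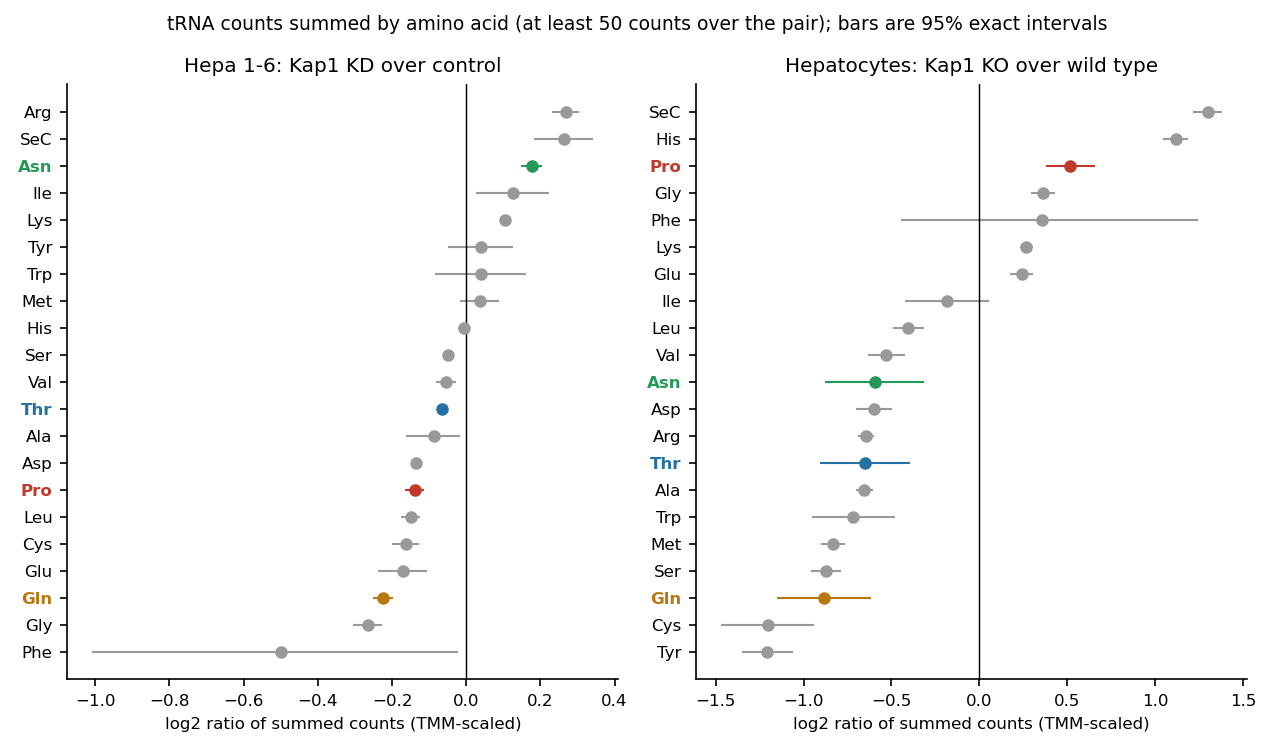
Log2 ratio of TMM-scaled counts summed by amino acid, for groups with at least 50 counts over the pair, with 95% exact intervals; Pro, Thr, Asn and Gln are coloured. They lie between -0.22 and 0.18 in Hepa 1-6 cells, while in hepatocytes Pro lies at 0.52 and the other 3 between -0.88 and -0.60; with total-count scaling all 4 fall below 0 in both panels.

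Each Pro anticodon was lower in Kap1 KD Hepa 1-6 cells and higher in Kap1 KO hepatocytes than in its control, the latter turning below 0 with total counts for all 3. Pro-AGG had 3396 and 1543 counts in Hepa 1-6 control and Kap1 KD, a log2 ratio of -0.49 (-0.575 to -0.400), and 90 and 237 in wild-type and Kap1 KO hepatocytes, a ratio of 0.69 (0.344 to 1.066). Pro-CGG had 1756 and 768 counts, a ratio of -0.54 (-0.667 to -0.419), and 143 and 270, a ratio of 0.22 (-0.078 to 0.523). The interval of Pro-CGG in hepatocytes included 0. Pro-TGG had 31221 and 18724 counts, a ratio of -0.09 (-0.113 to -0.061), and 371 and 894, a ratio of 0.57 (0.395 to 0.750). Without its most abundant entry Pro-TGG turned to 0.04 (-0.025 to 0.110) in Hepa 1-6 cells and fell to 0.07 (-0.145 to 0.288) in hepatocytes. Pro-CGG in hepatocytes rose to 1.03 (0.485 to 1.646) without chr11.tRNA396-ProCGG.

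Thr-AGT had 851 and 817 counts in Hepa 1-6 control and Kap1 KD, a log2 ratio of 0.59 (0.452 to 0.732) that became -0.21 with total counts, and 22 and 31 in wild-type and Kap1 KO hepatocytes, a ratio of -0.21 (-1.037 to 0.656). Thr-CGT had 113935 and 69092 counts, a ratio of -0.07 (-0.084 to -0.057) that turned to 0.37 without chr13.tRNA75-ThrCGT, and 134 and 111, a ratio of -0.97 (-1.345 to -0.595). Thr-AGT had the highest summed Thr ratio in both cell types through chr11.tRNA395-ThrAGT, without which it was -0.10 (-0.574 to 0.347) in Hepa 1-6 cells and, on 15 and 8 counts, -1.56 (-3.049 to -0.275) in hepatocytes. Thr-CGT in hepatocytes went to -1.59 (-2.118 to -1.081) without chr16.tRNA50-ThrCGT. Thr-TGT had 699 and 441 counts, a ratio of -0.01 (-0.189 to 0.160) that became 0.03 with the tRNA total and -0.39 (-0.671 to -0.125) without chr14.tRNA704-ThrTGT, and 91 and 113, a ratio of -0.39 (-0.796 to 0.030). Gln-CTG had 223 and 154 counts, a ratio of 0.12 (-0.189 to 0.419) that became -0.69 with total counts, and 48 and 52, a ratio of -0.58 (-1.176 to 0.015). Gln-TTG had 32620 and 17766 counts, a ratio of -0.23 (-0.252 to -0.199), and 202 and 168, a ratio of -0.96 (-1.267 to -0.661). Without chrX.tRNA936-GlnTTG the Gln-TTG direction turned with TMM in both pairs, to 0.32 (0.261 to 0.381) and, from 69 and 148 counts, to 0.40 (-0.018 to 0.838). Summed over all entries both Gln anticodons lay below 0 in hepatocytes, and the interval of Gln-CTG included 0 in each pair. In hepatocytes it did not without chr9.tRNA342-GlnCTG, at -0.92 (-1.619 to -0.239).

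Single members were compared where they had at least 50 counts over a pair, which 36 of 65 members passed in Hepa 1-6 cells and 21 of 61 in hepatocytes, and were counted where their ratio passed 1.5-fold. In Hepa 1-6 cells 3 members were higher in Kap1 KD, where 16.8% of all 339 tested entries and 8.13% of 246 tested tRNA entries were, and with total counts 0 members and 0.885% of all entries were. Another 6 members were lower, where 17.4% of all entries and 23.2% of tRNA entries were, and this count was 23 with total counts (61.4% of all entries) and 3 with the tRNA total (15.3%). In hepatocytes 7 members were higher in Kap1 KO, where 30.3% of 261 tested entries and 13.9% of 166 tRNA entries were, and with total counts 0 members and 6.51% of all entries were. A further 5 members were lower, where 30.7% of all entries and 45.8% of tRNA entries were, and this count was 14 with total counts (69.7% of all entries). Whether members differed in this from other entries was not tested. The median log2 ratio of tested members was -0.10 in Hepa 1-6 cells, beside -0.12 for the other tRNA entries, 0.49 for snoRNA entries and 0.02 for all. In hepatocytes it was -0.10 for members, beside -0.55 for the other tRNA entries, 0.73 for snoRNA entries and -0.02 for all.

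**Figure D4:**
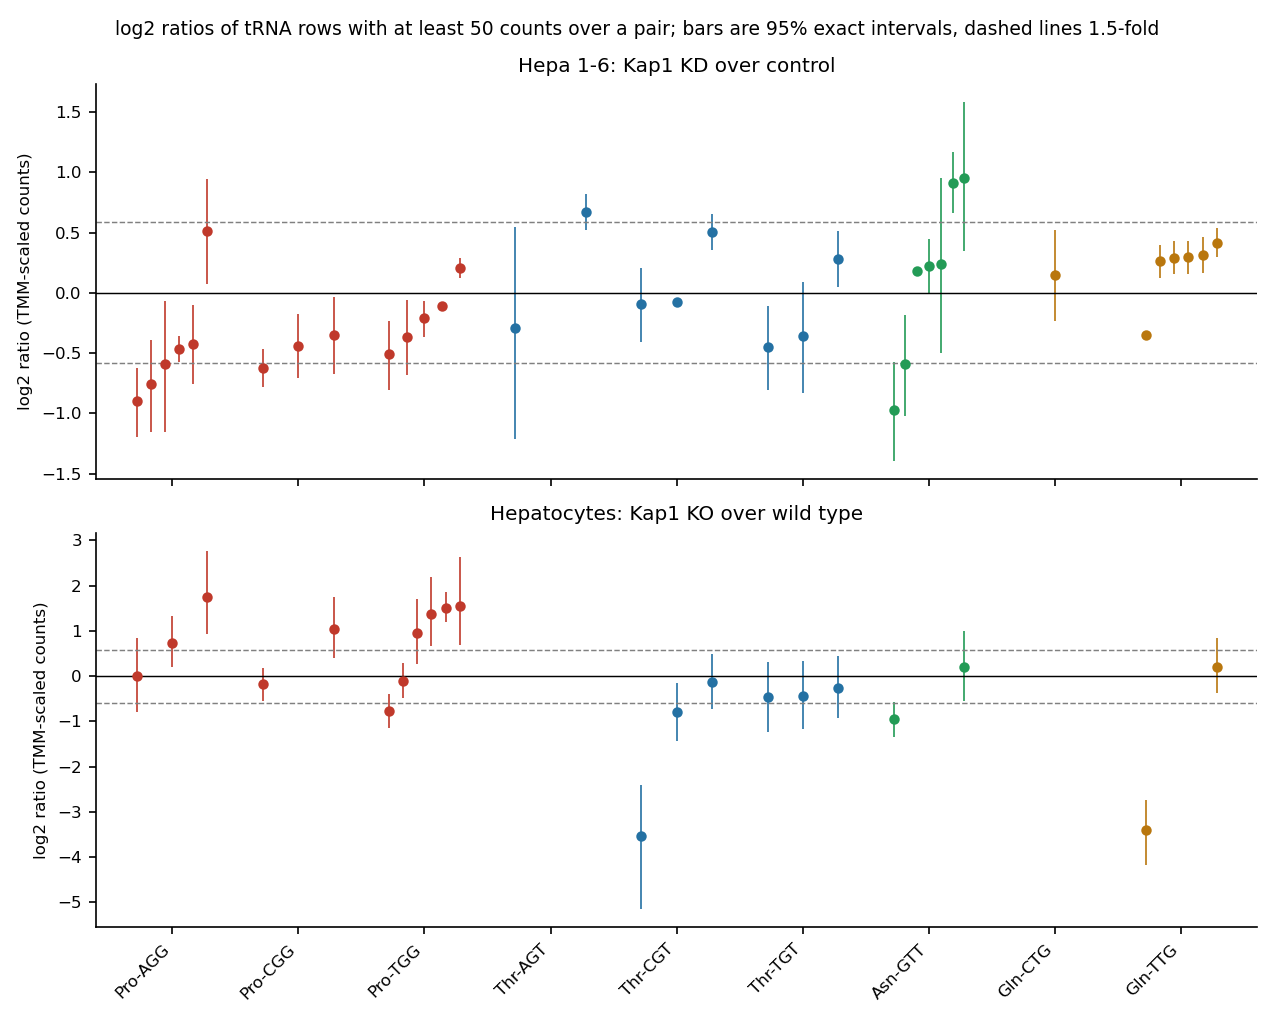
Log2 ratio of each member with at least 50 counts over a pair, by anticodon, with 95% exact intervals for counting error; dashed lines mark 1.5-fold with TMM scaling, and total-count scaling would shift all points by -0.81 (Hepa 1-6) and -1.17 (hepatocytes), turning 3 of the 7 Pro entries and 1 of the 3 higher Hepa 1-6 entries below 0. In hepatocytes all 7 members past 1.5-fold higher are Pro tRNAs, as are 11 of the 21 tested (with a minimum of 10 counts, 9 of 17 higher and 16 of 43 tested are Pro), and chr13.tRNA75-ThrCGT and chrX.tRNA936-GlnTTG lie lowest at -3.54 and -3.40. All of the 7 but chr11.tRNA372-ProTGG passed the minimum only with their Kap1 KO counts.

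All 7 members higher in Kap1 KO hepatocytes were Pro tRNAs at the minimum of 50 counts, where 11 of the 21 tested members were Pro, and 4 of the 7 stayed above 0 with total counts. The minimum is on the sum over the pair, so a member can pass it through the library where it is high. Except chr11.tRNA372-ProTGG, with 89, these members had 37 wild-type counts or fewer and passed only with their Kap1 KO counts. That all 7 were Pro is therefore description alone. With a minimum of 10 counts, 9 of 16 tested Pro members and 8 of 27 tested Thr, Asn or Gln members were higher, as were 28.9% of all entries. With a minimum of 200 counts 1 of the 5 tested members was higher, as were 35.3% of all entries. Of these 5 members, 4 were Pro. chr11.tRNA372-ProTGG, shown above, had a log2 ratio of 1.51 (1.187 to 1.868), which was 0.35 with total counts. chr14.tRNA192-ProTGG had 19 counts in wild-type and 81 in Kap1 KO hepatocytes, a ratio of 1.37 (0.660 to 2.199), and 1044 and 574 in Hepa 1-6 control and Kap1 KD. It was high in Kap1 KO against wild type and lower in Kap1 KD than in control, with a Hepa 1-6 ratio of -0.21 (-0.362 to -0.064). chr1.tRNA1022-ProCGG had 25 and 84 counts in wild-type and Kap1 KO hepatocytes, a ratio of 1.03 (0.392 to 1.758) that became -0.13 with total counts, and 1133 and 468 in Hepa 1-6 control and Kap1 KD, a ratio of -0.62 (-0.783 to -0.468), or -0.58 with the tRNA total. chr1.tRNA672-ProAGG had 37 and 101 counts in wild-type and Kap1 KO hepatocytes, a ratio of 0.74 (0.195 to 1.336) that became -0.43 with total counts, and 2328 and 1075 in Hepa 1-6 control and Kap1 KD, a ratio of -0.46 (-0.570 to -0.359). Both entries on chromosome 1 were thus past 1.5-fold higher in Kap1 KO, and below 0 in Kap1 KD.

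The remaining 3 Pro entries of this group were chosen after their values were seen. chr14.tRNA705-ProAGG went from 13 to 73 counts in hepatocytes, a ratio of 1.75 (0.930 to 2.768), chr17.tRNA996-ProTGG from 12 to 59, a ratio of 1.55 (0.690 to 2.632), and chr11.tRNA207-ProTGG from 23 to 73, a ratio of 0.95 (0.276 to 1.713) that became -0.22 with total counts. All 3 had ratios below 0 in Hepa 1-6 cells, at -0.42, -0.36 and -0.51. chr11.tRNA396-ProCGG and chr7.tRNA441-ProTGG, with 109 and 92 wild-type counts, did not follow them. Their hepatocyte ratios were -0.18 (-0.542 to 0.187) and -0.10 (-0.492 to 0.294), both with intervals that include 0. chr11.tRNA372-ProTGG, with 89 wild-type counts, was among the higher members. chr3.tRNA92-ProTGG, the leading Pro entry of Hepa 1-6 cells, was lower in Kap1 KO hepatocytes, with a ratio of -0.77 (-1.149 to -0.391).

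The members past 1.5-fold lower in Kap1 KO hepatocytes were chr13.tRNA75-ThrCGT, chrX.tRNA936-GlnTTG, chr3.tRNA757-AsnGTT, chr3.tRNA92-ProTGG and chr11.tRNA550-ThrCGT. The first 4 are the same 4 entries that had the highest counts among members in the Hepa 1-6 libraries. chr13.tRNA75-ThrCGT had the lowest ratio, -3.54 (-5.154 to -2.405), on 52 counts, and chrX.tRNA936-GlnTTG had -3.40 (-4.188 to -2.746), on 153 counts. chr3.tRNA757-AsnGTT had a ratio of -0.96 (-1.348 to -0.575). chr11.tRNA550-ThrCGT, chosen after its values were seen, went from 46 to 43 counts, a ratio of -0.79 (-1.429 to -0.163), and had 237 and 141 counts in Hepa 1-6 control and Kap1 KD, a ratio of -0.10 (-0.410 to 0.208). In Hepa 1-6 cells these 4 entries had ratios of -0.08, -0.35, 0.18 and -0.11 for Thr, Gln, Asn and Pro, none past 1.5-fold with TMM and all 4 past 1.5-fold lower with total counts.

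This overlap was examined after it was seen, over all tRNA entries with at least 10000 counts in Hepa 1-6 control and at least 50 over the hepatocyte pair. All 4 such members were past 1.5-fold lower in Kap1 KO hepatocytes, and 7 of the 10 such entries of other amino acids were. The 3 entries of other amino acids that were not lower were chr16.tRNA267-LysCTT, chr12.tRNA790-LysCTT and chr2.tRNA1432-HisGTG, with ratios of 0.34, 0.40 and 1.02, all of which turned below 0 with total counts. Among tested entries below 10000 counts, 1 of 17 members and 64 of 135 other tRNA entries were past 1.5-fold lower, and 7 and 15 were past 1.5-fold higher. Without the 4 entries, the remaining 57 members had 880 counts in wild-type and 1850 in Kap1 KO hepatocytes, a log2 ratio of 0.37 (0.258 to 0.492, below 0 with total counts) in place of -0.01 (-0.115 to 0.086) for all 61, a value that turned to 0.10 with median-of-ratios scaling and 0.07 with the tRNA total. Whether RNA of one library entered another, and any other cause of this overlap, was not tested.

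**Figure D5:**
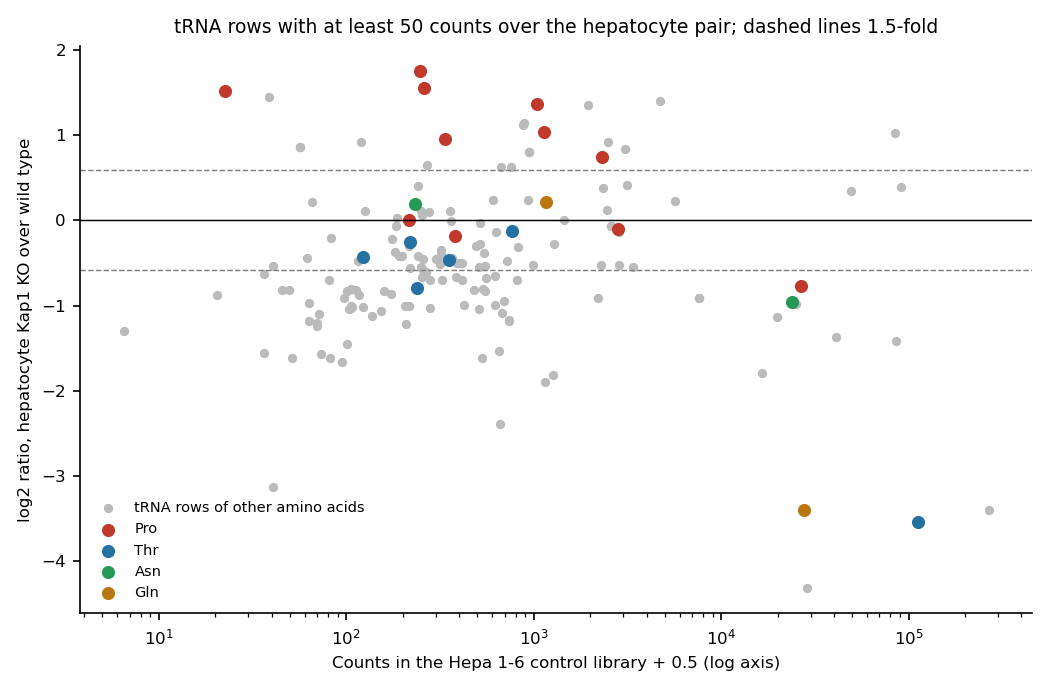
Log2 ratio of Kap1 KO over wild-type hepatocytes (TMM-scaled) against the count in Hepa 1-6 control plus 0.5, on a log axis, for the 166 tRNA entries with at least 50 counts over the hepatocyte pair; members are coloured by amino acid and dashed lines mark 1.5-fold. The 4 members at the right, above 10000 counts, all lie below the lower dashed line, and the 7 above the upper one are Pro tRNAs with 22 to 2328 counts in Hepa 1-6 control; total-count scaling would shift all points by -1.17 and turn 3 of these 7 below 0. All of the 7 but chr11.tRNA372-ProTGG passed the minimum only with their Kap1 KO counts.

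In Hepa 1-6 cells the members past 1.5-fold higher in Kap1 KD were chr15.tRNA1013-AsnGTT, chr1.tRNA814-AsnGTT and chr11.tRNA395-ThrAGT, of which the first pair stayed above 0 with total counts. chr1.tRNA814-AsnGTT had 233 counts in control and 280 in Kap1 KD, a log2 ratio of 0.92 (0.660 to 1.173), and 23 and 43 in wild-type and Kap1 KO hepatocytes, a ratio of 0.19 (-0.557 to 1.003). chr11.tRNA395-ThrAGT had 741 and 752 counts in control and Kap1 KD, a ratio of 0.67 (0.524 to 0.820) that became -0.13 with total counts, and 7 and 23 in wild-type and Kap1 KO hepatocytes. It held 87.1% of Thr-AGT counts in control and 92.0% in Kap1 KD, and the Thr-AGT ratio without it is given above. chr15.tRNA1013-AsnGTT, chosen after its values were seen, had 42 and 52 counts, a ratio of 0.96 (0.344 to 1.581). chr3.tRNA93-ProAGG had 96 and 87 counts in control and Kap1 KD, a ratio of 0.51 (0.073 to 0.943) that became -0.30 with total counts. chr16.tRNA50-ThrCGT had 764 and 690 counts in control and Kap1 KD, a ratio of 0.50 (0.353 to 0.654) that became -0.30 with total counts, and 41 and 61 in hepatocytes, a ratio of -0.13 (-0.719 to 0.484).

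The lowest Hepa 1-6 ratio was that of chr10.tRNA381-AsnGTT, with 210 counts in control and 68 in Kap1 KD, -0.97 (-1.393 to -0.575). chr6.tRNA46-ProAGG had 405 and 138 counts, a ratio of -0.90 (-1.192 to -0.620), and chr7.tRNA977-ProAGG 216 and 81, a ratio of -0.76 (-1.151 to -0.389). chr1.tRNA1022-ProCGG, given above, chr13.tRNA957-ProAGG at -0.59 and chr11.tRNA1446-AsnGTT at -0.59 completed the 6 members lower in Kap1 KD, and with the tRNA total these 3 fell inside the 1.5-fold line of -0.585. In hepatocytes chr10.tRNA381-AsnGTT had 5 and 16 counts, chr6.tRNA46-ProAGG 9 and 3, and chr7.tRNA977-ProAGG 22 and 36. Asn entries therefore lay at both ends of the Hepa 1-6 range. Of 14 tested Pro entries 12 lay below 0, as did 152 of all 246 tested tRNA entries. Of the 7 tested Gln entries, 6 lay above 0 with TMM, as did 94 of the 246. The summed Gln ratio lay below 0 because of chrX.tRNA936-GlnTTG, which held 84.1% of Gln counts in control. With total counts all 7 Gln entries lay below 0.

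Gln-TTG entries other than chrX.tRNA936-GlnTTG resembled each other in Hepa 1-6 cells. The 5 entries had 863 to 1170 counts in control and 684 to 995 in Kap1 KD, with ratios from 0.26 to 0.42 (below 0 with total counts). The most abundant of them, chr11.tRNA630-GlnTTG, had 1170 and 995 counts there and 36 and 68 in wild-type and Kap1 KO hepatocytes, a ratio of 0.21 (-0.383 to 0.845). chr3.tRNA753-GlnCTG had 146 and 103 counts in Hepa 1-6 control and Kap1 KD, a ratio of 0.15 (-0.231 to 0.521), and 12 and 8 in hepatocytes. chr9.tRNA342-GlnCTG, the most abundant Gln-CTG entry by counts summed over the hepatocyte pair, had 7 and 17 counts there and 16 and 12 in Hepa 1-6 cells. In wild type it lay below chr3.tRNA753-GlnCTG. Both Gln-CTG entries were too low in hepatocytes to be compared singly. For Thr-TGT, chr14.tRNA704-ThrTGT had 354 and 274 counts in Hepa 1-6 control and Kap1 KD, a ratio of 0.28 (0.048 to 0.513), and chr14.tRNA190-ThrTGT 33 and 45 in hepatocytes, a ratio of -0.26 (-0.930 to 0.444). The intervals of chr3.tRNA753-GlnCTG in Hepa 1-6 cells and of chr14.tRNA190-ThrTGT in hepatocytes included 0, and chr14.tRNA704-ThrTGT turned to -0.52 with total counts.

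Genes with an identical tRNA sequence had very different counts in some sets and alike counts in others. The 4 loci that share the commonest Pro-TGG sequence had 261 to 26728 counts in Hepa 1-6 control, 129 to 15777 in Kap1 KD, 12 to 122 in wild-type and 59 to 116 in Kap1 KO hepatocytes. chr3.tRNA92-ProTGG was the highest of them in each library, and it was lower in Kap1 KO than in wild type, while the other 3, chr11.tRNA207-ProTGG, chr14.tRNA192-ProTGG and chr17.tRNA996-ProTGG, were higher (the first turned below 0 with total counts). The 6 loci of the commonest Pro-AGG sequence had 96 to 2328 counts in Hepa 1-6 control and 2 to 37 in wild-type hepatocytes. The 8 loci of the commonest Asn-GTT sequence had 1 to 379 counts in Hepa 1-6 control, and among them chr3.tRNA294-AsnGTT and chr3.tRNA750-AsnGTT had equal counts in every library, 1 and 1 in Hepa 1-6 cells and 15 and 5 in hepatocytes. The 2 loci of the commonest Gln-TTG sequence, chr13.tRNA113-GlnTTG and chr13.tRNA114-GlnTTG, were alike, with 974 and 967 counts in control, then 760 and 756 in Kap1 KD. Each entry covers the gene with 200 bp on either side, and how reads that match several loci were placed is not given in the sources used here. The split of counts between identical genes is therefore uncertain. The anticodon sums do not depend on that split if each read was counted once, at a single locus, which is not known. Reads counted at several loci or left out would change the sums, shares and intervals. The commonest Pro sequences of different anticodons differ at 1 position alone, and whether reads moved between those anticodons was not tested.

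The ratios of the pairs were set side by side for the 20 members with at least 50 counts in each pair. Of these, 7 were below 0 in Hepa 1-6 cells and above 0 in hepatocytes, 7 were below 0 in both, 2 were above 0 in both and 4 were above 0 in Hepa 1-6 cells alone, all with TMM scaling. The Spearman correlation of the ratios was -0.35 across these members, which share libraries and in part sequences. All 7 members of the kind below 0 in Hepa 1-6 cells and above 0 in hepatocytes were Pro tRNAs, as were 10 of the 20, and 3 of the 7 stayed above 0 in hepatocytes with total counts. Each of these 7 had 37 wild-type counts or fewer and passed the hepatocyte minimum only with its Kap1 KO counts. Among other tRNA entries 23 of 142 were of this kind. chr7.tRNA977-ProAGG, 1 of the 7, lay at 0.001 in hepatocytes.

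By position, the 15 members on chromosome 13 held 55.3% of member counts in Hepa 1-6 control and 55.4% in Kap1 KD, nearly all from chr13.tRNA75-ThrCGT, and in hepatocytes the 13 listed there held 8.26% in wild type and 4.24% in Kap1 KO. The 12 members on chromosome 11 held 2.02% and 2.49% in Hepa 1-6 control and Kap1 KD, and 27.5% and 41.1% in wild-type and Kap1 KO hepatocytes. Chromosome 13 was high in Hepa 1-6 cells and chromosome 11 in hepatocytes, the latter mostly through chr11.tRNA372-ProTGG and chr11.tRNA396-ProCGG.

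The machinery that makes and charges these tRNAs was examined in the polyadenylated RNA of Hepa 1-6 cells, with a list of 63 genes, of which 62 were in the table and 61 passed the filter on low counts. edgeR's quasi-likelihood test called 0 of the 61 higher and 0 lower in Kap1 KD, where it called 0% of 14142 tested genes in each direction. By edgeR, 0 of the 61 and 185 of all genes (1.31%) had an unadjusted p under 0.05. DESeq2 called 0 of the list, and 2 genes higher and 1 lower among all. The study reports many more genes in each direction with DESeq2 at the same fold and adjusted p thresholds. Why the counts differ was not tested. With replicate number as a block, a pairing that was not established, edgeR called 292 genes higher and 339 lower, and 0 of the list. Of the 61 genes, 31 had log2 fold changes above 0 and 30 below, with a median of 0.003 beside -0.016 for all tested genes and a range from -0.28 (Bdp1, a TFIIIB subunit) to 0.44 (Ctu1, a wobble uridine thiolase).

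Eprs, whose product charges both glutamate and proline tRNAs, measured 422 and 315 CPM without knockdown, against 411 and 314 with it. Tars, which charges threonine tRNAs, measured 266 and 228 CPM without knockdown, against 247 and 212 with it. Nars, for asparagine tRNAs, measured 352 and 326 CPM without knockdown, against 366 and 325 with it. The groups overlapped for Eprs, Tars and Nars, with log2 fold changes of -0.03 (standard error 0.246), -0.12 (0.189) and 0.02 (0.169). Qars, for glutamine tRNAs, measured 124.5 and 166.6 CPM without knockdown, against 151.6 and 213.1 with it, a log2 fold change of 0.32 (0.256), also with overlapping groups. By role, the genes above 0 were 3 of 5 cytosolic charging enzymes, 4 of 6 mitochondrial ones and 5 of 13 polymerase III subunits. Also above 0 were 6 of 9 TFIIIB and TFIIIC subunits with Maf1 and 6 of 14 genes of end processing and export. So were 7 of 14 genes of wobble and position 37 modification. None of the 61 had an adjusted p below 0.9999 from edgeR without a block. Trim28, the targeted gene, also had 0.9999 in that fit, with a log2 fold change of -2.48. The lack of calls there thus cannot show that the listed genes were unchanged.

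These values rest on 1 small RNA library per group, on counts in the hepatocyte libraries that were low for most members, and on a normalisation that fixes direction. Cell type, rRNA depletion kit and manner of KAP1 loss differ together between the pairs. Reads over mature tRNA, precursor and the 200 bp flanks cannot be separated in the tables, and amount of RNA, rate of transcription and number of cells were not told apart. tRNA charging, modification and fragments were not analysed here, and hepatocyte mRNA was not analysed here either.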

How the data were processed

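Small RNA values were raw counts per tRNA or snoRNA sequence as deposited by the authors, whose labels give total RNA, rRNA depletion, a stranded library kit and the mm9 genome. Per the submitters' processing notes, TopHat2 2.0.11 and HTSeq 0.6.1 were used, and the handling of multi-mapping small RNA reads is not given. The deposited signal columns hold the count divided by 1 factor per library by the authors, and the deposited RPKM columns hold that value divided by sequence length in kb by the authors. Neither was used for ratios. The hepatocyte table holds each library in 2 columns that differ in 0 of 467 entries, and each such pair was counted as 1 library. mRNA counts per gene were made by the authors with 1 alignment reported per read. All 22 columns were assigned to samples.

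Members were compared by log2 ratio of TMM-scaled counts, and mRNA by edgeR's quasi-likelihood test without a block, 2 against 2 samples, with Benjamini-Hochberg adjustment, and by DESeq2; a call needed 1.5-fold and an adjusted p under 0.05. The code was tested on simulated data. Named members were the most abundant of each anticodon, by counts summed over the pair. Also named were, among members with at least 100 counts over the pair, the 3 highest and 3 lowest ratios. The members and lists were chosen with earlier results of these data known. The genome search omitted chromosome 18 and the mitochondrial genome, and chr14.tRNA628-ThrAGT and chr18.tRNA633-ThrCGT were not matched. For chr1.tRNA814-AsnGTT and chr1.tRNA1006-AsnGTT 1 locus was found for the 2 entries and was assigned to neither. Versions were Python 3.11.15, pandas 2.3.3, numpy 2.4.6, scipy 1.17.1, matplotlib 3.10.9, R 4.3.3, edgeR 4.0.16 and DESeq2 1.42.0.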

Additional observations from a re-analysis of the deposited data

Results flagged for a closer look

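These results had opposite directions in Hepa 1-6 cells and hepatocytes with TMM scaling, and the difference between the cell types was not tested, since each group has 1 library. With total counts all of them lay below 0 in both. The log2 ratio for Pro was -0.14 in Hepa 1-6 cells and 0.52 in hepatocytes. For Asn it was 0.18 in Hepa 1-6 cells and -0.60 in hepatocytes. Pro-AGG had -0.49 and 0.69, Pro-CGG -0.54 and 0.22, and Pro-TGG -0.09 and 0.57, in the same order. Thr-AGT had 0.59 and -0.21, and Gln-CTG 0.12 and -0.58. The intervals of Pro-CGG, Thr-AGT and Gln-CTG in hepatocytes, and of Gln-CTG in Hepa 1-6 cells, included 0. Without the most abundant entry of the anticodon, Thr-AGT lay below 0 in both, at -0.104 and -1.564. Pro-TGG then lay above 0 in both, at 0.042 and 0.069, with intervals that included 0. Pro-AGG, Pro-CGG, Asn-GTT (0.152 and -0.164) and Gln-CTG still had opposite directions. The Gln-CTG interval in Hepa 1-6 cells (-0.483 to 0.586) and the Asn-GTT interval in hepatocytes (-0.584 to 0.268) then included 0.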

How the results depend on the processing

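Pathway genes stayed at 0 called under each alternative. The cause of the differences below was not tested.

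In Hepa 1-6 cells, total counts gave log2 ratios of -0.945 (Pro), -0.870 (Thr), -0.629 (Asn) and -1.029 (Gln), and the tRNA total -0.094, -0.019, 0.222 and -0.178. Median-of-ratios scaling gave -0.085 for Thr. Medians over the 14, 8, 7 and 7 tested entries were -0.431, -0.086, 0.225 and 0.293. Without the most abundant entry the ratio was -0.224 for Pro, 0.357 for Thr and 0.313 for Gln. Members past 1.5-fold higher fell to 0 with total counts (0.885% of all entries). Members past 1.5-fold lower numbered 23 with total counts (61.4% of all entries) and 3 with the tRNA total (15.3%). With the tRNA total chr1.tRNA1022-ProCGG, chr13.tRNA957-ProAGG and chr11.tRNA1446-AsnGTT lay at -0.579, -0.546 and -0.544. The lower members numbered 10 with a count minimum of 10 (19.1% of all entries), and 4 with 1 added to each count in place of 0.5.

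In hepatocytes, total counts gave -0.649 (Pro), -1.816 (Thr), -1.761 (Asn) and -2.046 (Gln). Medians over tested entries were 0.948 for Pro, over 11 entries, and -1.595 for Gln, over 2 entries at -3.4 and 0.211. Without the most abundant entry the ratio was 0.241 for Pro, -0.164 for Asn and 0.074 for Gln, the last in the other direction. An alternative chosen after seeing the data left out the 4 members with at least 10000 counts in Hepa 1-6 control, and gave 0.717, -0.389, -0.164 and 0.074 for Pro, Thr, Asn and Gln. Members past 1.5-fold higher numbered 0 with total counts, where 6.51% of all entries were. They numbered 17 with a minimum of 10 (28.9% of all entries) and 1 with a minimum of 200 (35.3%). Members past 1.5-fold lower numbered 14 (69.7% of all entries), 15 (29.5%) and 2 (30.5%) in the same order.

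Another alternative chosen after seeing the data left out the most abundant entry of each anticodon. In Hepa 1-6 cells it turned Thr-AGT to -0.104, Pro-TGG to 0.042, Thr-CGT to 0.369 and Gln-TTG to 0.321. There it moved Thr-TGT to -0.394 and Gln-CTG to 0.061. In hepatocytes it turned Gln-TTG to 0.398, and moved Thr-AGT and Thr-CGT to -1.564 and -1.586. It also moved Pro-TGG to 0.069, Pro-CGG to 1.034, Asn-GTT to -0.164 and Gln-CTG to -0.922 in hepatocytes.

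Without the most abundant tRNA of the table, shares of tRNA counts in control and Kap1 KD Hepa 1-6 cells were 4.597% and 4.216% (Pro), 14.6% and 14.1% (Thr), 3.161% and 3.61% (Asn), and 4.151% and 3.592% (Gln). In wild-type and Kap1 KO hepatocytes they were 1.526% and 2.462% (Pro), 0.624% and 0.4482% (Thr), 0.5205% and 0.3884% (Asn), and 0.6316% and 0.3866% (Gln).

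For Trim28 the log2 fold change was -2.484 with a replicate block in edgeR and -2.473 in DESeq2. Without each sample in turn it ranged from -2.706 to -2.275 in edgeR, with adjusted p from 5.61e-08 to 0.000584, the lone sample assumed to vary like the other group. The replicate block called 292 genes higher and 339 lower, against 0 and 0 without it, and 0 of the pathway genes. Trim28 was among those called lower with the block. Deviations of same-numbered samples correlated at 0.796 over 2 pairs, but 1 sample per group has no number in its label, so pairing was not established.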

Other observations

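The mitochondrial proline tRNA gene mt-Tp gave 803 and 707 counts in polyadenylated RNA of control cells, then 614 and 822 in that of Kap1 KD cells. In CPM these were 14.3 and 14.3 in control, then 14.4 and 17.7 in Kap1 KD. The asparagine gene mt-Tn had 2 and 3 counts, then 0 and 7. mt-Tt and mt-Tq were not listed.

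All 7 tested hepatocyte markers had log2 fold changes below 0 in Kap1 KD Hepa 1-6 cells, with 0 called, and 2 of the 7 had an unadjusted p under 0.05 in edgeR (Apob 0.00325, Apoa1 0.0414), as did 1.31% of all 14142 genes. The 3 tested cholangiocyte markers and the 1 tested endothelial marker also lay below 0, while 2 of 3 fibroblast markers and the 1 tested leukocyte marker lay above. Alb measured 1562 and 1041 CPM without knockdown, against 976 and 443.1 with it.

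chr3.tRNA297-GlnCTG, chr3.tRNA753-GlnCTG and chr3.tRNA756-GlnCTG each differed from the commonest Gln-CTG sequence by A68G alone, and chr3.tRNA753-GlnCTG held 146 of their 150 counts in Hepa 1-6 control.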
